A study of Mus musculus with 6 samples.

Results

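The genes described here form the oxygen sensing pathway built around the hypoxia-inducible factor (HIF). They were listed by name, by a rule that uses no measured value, although earlier results of these data were known when the list was made. They comprised the HIF subunits *Hif1a*, *Epas1* and *Arnt*, the hydroxylases *Egln1*, *Egln2*, *Egln3* and *Hif1an*, the ubiquitin ligase subunit *Vhl* and the target gene *Vegfa*. All 9 had a row among the 12125 genes of the deposited table of normalized counts. The 6 RNA-seq libraries came from sorted kidney cells of 3 *Trf1*+/+ and 3 *Trf1*flox/flox mice, in which exons of *Terf1*, the gene of the telomere protein TRF1, can be removed by Cre. The study used male and female mice, and the sex of the mouse behind each library is not given here. Mice of both genotypes carried *Col1a2*-CreERT2, a Cre that tamoxifen activates and that the *Col1a2* promoter drives. They also carried the Cre reporter KFP, the Katushka fluorescent protein behind a stop cassette flanked by lox sites. All 6 mice received tamoxifen 3 times a week for 8 weeks, beginning at an age of 6 to 8 weeks, so that the control group also carried active Cre and differed in the *Trf1* allele. Cells were sorted with antibodies to CD29, an integrin of the cell surface, and to KFP, and it is not given in the sources used here whether cells had to be positive for both. The *Trf1*+/+ libraries are also called controls. The replicate numbers 1 to 3 of each genotype are names only and pair no mice.

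When oxygen is available, the prolyl hydroxylases encoded by *Egln1*, *Egln2* and *Egln3* hydroxylate the α subunits of HIF, VHL recognises the hydroxylated proline and its ligase complex marks the subunit for destruction. The asparaginyl hydroxylase FIH, encoded by *Hif1an*, blocks the contact of HIF-α with the coactivators p300 and CBP. When oxygen falls, HIF-1α (*Hif1a*) or HIF-2α (*Epas1*) accumulates, pairs with ARNT and binds short DNA elements with the core ACGTG or GCGTG near genes of glycolysis, iron handling, blood vessel growth and erythropoietin. In the kidney HIF-1α is known mainly from tubule epithelium and HIF-2α from interstitial and endothelial cells. Much of this control acts on the protein, which RNA counts do not measure.

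The cells were labelled fibroblasts, and the markers went against that label in both groups. Of 12 fibroblast markers 3 were listed, and *Col1a2*, whose promoter drives the Cre, had at most 1.78 normalized counts in any library. The summed fibroblast markers lay between 1.66 and 105 in the *Trf1*+/+ and between 15.5 and 102 in the *Trf1*flox/flox libraries. By contrast, all 12 proximal tubule markers were listed, with sums of 20462 to 94354 in *Trf1*+/+ and 26568 to 124358 in *Trf1*flox/flox libraries. The 6 markers of the loop of Henle and distal tubule summed to 74647 to 121134 and 55810 to 138612. Collecting duct markers summed to 442 to 9796 and 1413 to 18771, with all 6 listed. Of the other cell types, 2 of 6 myofibroblast and pericyte markers were listed (sums of 0 to 37.4 and 18.6 to 233), 2 of 9 endothelial markers (8.02 to 297 and 1.72 to 307), 5 of 11 leukocyte markers (280 to 1471 and 0 to 2513) and 0 of 5 podocyte markers. The 5 erythroid markers summed to 238 to 10472 and 121 to 52403. The ranges of the 2 groups overlapped for every list with a listed marker. The cells are therefore called sorted kidney cells here, and in such bulk samples fewer cells of a type and less RNA per cell cannot be told apart.

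**Figure D1:**
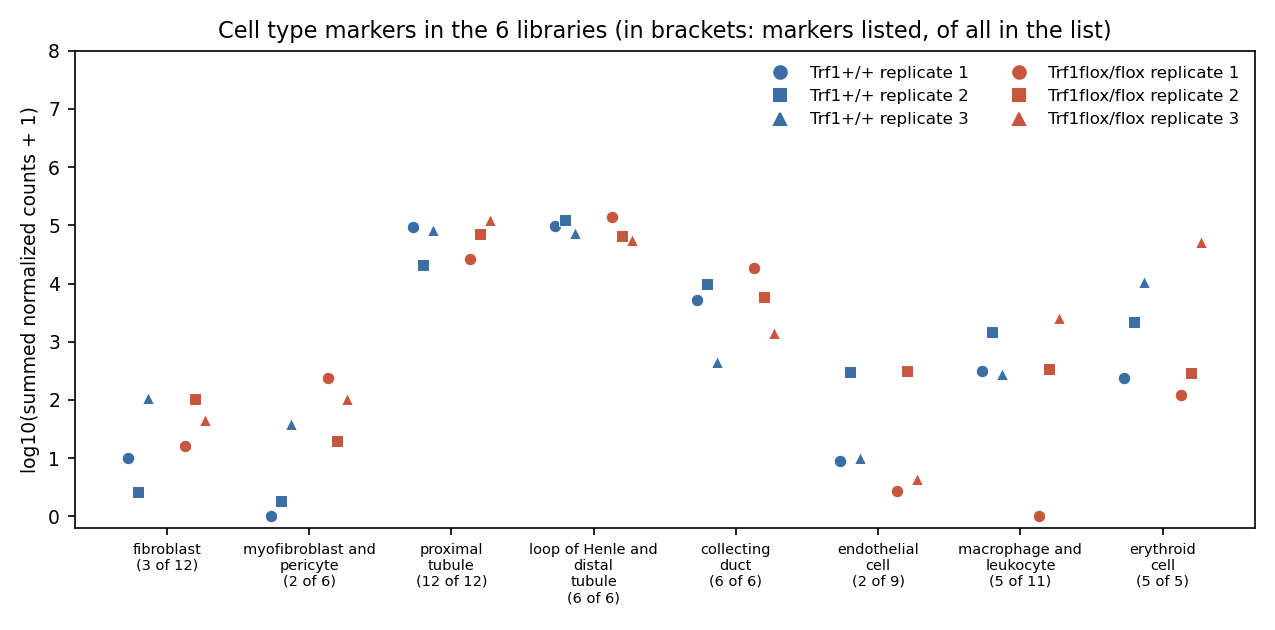
Summed normalized counts of the listed markers of 8 cell types in each library, on a log10(sum + 1) scale, with *Trf1*+/+ libraries in blue and *Trf1*flox/flox libraries in red. Tubule markers exceed fibroblast markers in all 6 libraries, and podocyte markers, none of which is listed, are not drawn.

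The libraries held 10263382 to 12248797 reads on listed genes, and 1 read was worth 0.689 to 1.09 normalized counts. These reads were amplified by PCR and carry no molecular identifiers, so floors and zeros cover counting error only. A gene with at most 3 reads, worth 2.07 to 3.28 normalized counts depending on the library, counted as being at the floor. Of the genes that averaged 100 or more normalized counts over the other 5 libraries, 27.1% were at the floor in the library labelled *Trf1*+/+ replicate 1 and 14.8% in *Trf1*flox/flox replicate 2, against 1.62% to 7.50% in the other 4 libraries. For *Terf1* itself (chromosome 1, 15805646 to 15844052) the normalized counts of the control replicates 1, 2 and 3 were 0.891, 253 and 235. Those of *Trf1*flox/flox replicates 1, 2 and 3 were 110.0, 7.65 and 12.4. A single *Terf1* read is low for a library labelled *Trf1*+/+, as replicate 1 was. In the same library 27.1% of the genes with high averages elsewhere were at the floor. Why its *Terf1* count was low was not tested. *Trf1*flox/flox replicate 1 held 128 *Terf1* reads, more than the other two libraries of its genotype and fewer than the other two controls, and counts per gene do not show whether such reads came from the floxed exons. Groups were nevertheless kept as the labels give them. All gene positions are those of GENCODE vM21 on GRCm38.

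The question asked of the pathway was whether its transcripts differed between the genotypes. In normalized counts the *Trf1*flox/flox libraries had lower *Hif1a* and higher *Hif1an* than every *Trf1*+/+ library, while the other 7 genes overlapped between the groups. In reads *Hif1an* overlapped as well. No gene of the pathway passed the test. Differences were taken as *Trf1*flox/flox minus *Trf1*+/+ on the log2(normalized count + 1) scale. They were tested with limma over the 9966 genes that reached 10 normalized counts in 3 or more libraries. The added 1 shrinks the change of low genes, but a single library at the floor can enlarge a difference on this scale. For *Hif1a* the difference was -3.67 here and -1.84 with edgeR, and for *Vhl* it was -0.44 and -0.69. The filter kept 8 of the 9 genes and left out *Epas1*. Each of the 8 reached 10 in at least 1 library of both groups. However, the group with the higher mean met the filter alone for *Hif1a* and *Egln2* (*Trf1*+/+) and for *Hif1an* and *Vegfa* (*Trf1*flox/flox). Of the 8 genes, 4 were higher and 4 lower, against 55.9% higher and 44.1% lower among all tested genes, and their median log2 difference was 0.86 against 0.20 over all tested genes. None had an adjusted p under 0.05 in limma with Benjamini-Hochberg adjustment, where 0% of all tested genes did, and the value was 0.996 for each. None had an unadjusted p under 0.05, against 454 genes or 4.56% of all tested genes. On the recovered reads edgeR called 0 genes at an adjusted p under 0.05 (196 unadjusted) and DESeq2 called 58 (410 unadjusted). No gene of the pathway was among the latter, but DESeq2 gave *Egln2* no p-value, so it could not be called there. The groups did not overlap for 2 of the 8 genes, 1 in each direction, against 8.68% of all tested genes, of which 5.35% had *Trf1*flox/flox above and 3.33% had it below. The spread within groups was wide, with a median standard deviation of 2.17 on the log2 scale over all tested genes. A p above the threshold does not show that the levels were the same in both groups.

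**Figure D2:**
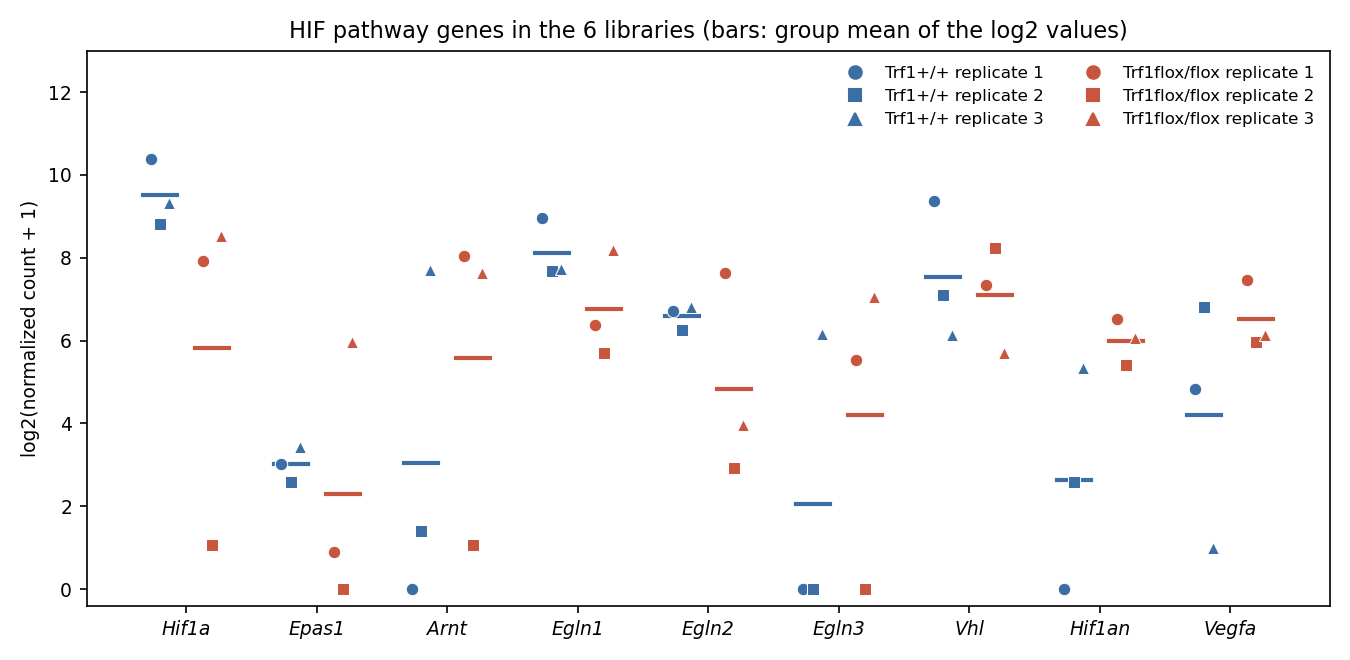
The 9 HIF pathway genes in each of the 6 libraries as log2(normalized count + 1), with *Trf1*+/+ libraries in blue, *Trf1*flox/flox libraries in red, a marker shape for each replicate and a bar at each group's mean. The blue and red points separate for *Hif1a* and *Hif1an* and overlap for the other 7 genes, and *Hif1a*, *Epas1*, *Arnt*, *Egln3*, *Hif1an* and *Vegfa* have at least 1 library at or near 0.

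*Hif1a* encodes the α subunit HIF-1α (ENSMUSG00000021109, chromosome 12, 73901375 to 73947530, plus strand). Its normalized counts were 1327, 449 and 642.5 in control replicates 1, 2 and 3. In the *Trf1*flox/flox replicates of the same numbers they were 239.7, 1.09 and 367. All 3 *Trf1*flox/flox libraries thus lay below the lowest *Trf1*+/+ library, and the value of replicate 2 stood for 1 read, while the other 5 libraries held at least 279 reads. Controls averaged 806 ± 461 (SD, n = 3) and *Trf1*flox/flox libraries 203 ± 186 (SD, n = 3). The log2 difference was -3.67 (standard error 2.09, unadjusted p = 0.129 from limma), or -3.87 after subtraction of the median difference over all tested genes. An exact permutation test, two-sided, gave p = 0.1, the smallest value that 3 libraries against 3 allow. Without *Trf1*flox/flox replicate 2 the log2 difference was -1.29, and it was -0.85 when the library labelled *Trf1*+/+ replicate 1 was left out as well. An antisense gene, Gm15283, overlaps 330 bases or 5.60% of the *Hif1a* exons, and Gm49321 overlaps 148 bases on the same strand. Neither is listed in the table, and the kit does not mark strand.

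*Epas1*, which encodes HIF-2α (ENSMUSG00000024140, chromosome 17, 86753700 to 86833410, plus strand), had fewer than 10 normalized counts in 5 of the 6 libraries. Control libraries held 7.13, 4.97 and 9.85 normalized counts, and *Trf1*flox/flox libraries held 0.859, 0 and 62.0. Only *Trf1*flox/flox replicate 3 exceeded 10 normalized counts, and replicates 1 and 2 of that genotype were at the floor, with 1 and 0 reads. *Trf1*flox/flox replicate 3 also had the highest summed erythroid markers (52403), although red cells were lysed before the sort, and the part of these markers in the *Epas1* value was not tested. Its leukocyte sum (2513) was *Cd74* alone, and the other 4 listed leukocyte markers were at 0 there. The endothelial marker *Pecam1* had 3.45 normalized counts in that library and at most 12.0 in the others. The sign of its difference depended on the scale. The mean count was 7.32 ± 2.45 in controls and 21.0 ± 35.6 in *Trf1*flox/flox libraries (SD, n = 3 each), whereas the log2 difference was -0.72, with an exact two-sided permutation p of 0.8.

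*Arnt*, the partner that either α subunit needs to bind DNA (ENSMUSG00000015522, chromosome 3, 95434388 to 95497240, plus strand), was nearly absent from some libraries of each genotype and well above the floor in others. Normalized counts were 0, 1.66 and 208.9 for the controls, and 262, 1.09 and 199 for the *Trf1*flox/flox libraries. The 3 libraries at the floor, *Trf1*+/+ replicates 1 and 2 and *Trf1*flox/flox replicate 2, held 0, 2 and 1 reads, and the other 3 held 212 to 305. This gave a log2 difference of 2.54 (standard error 2.74, unadjusted p = 0.389 from limma), which its standard error exceeded. Leaving out single libraries moved it between 1.02 and 4.88.

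The 3 prolyl hydroxylases had log2 differences of both signs. *Egln1*, which encodes PHD2, the main oxygen sensor of most cells (ENSMUSG00000031987, chromosome 8, 124908587 to 124949324, minus strand), stood at 499.7, 203 and 211 normalized counts in controls and at 81.6, 51.4 and 290.1 in *Trf1*flox/flox libraries. Replicates 1 and 2 of the latter lay below every control, and replicate 3 lay among the controls. The resulting log2 difference was -1.37 (standard error 0.99, unadjusted p = 0.216 from limma), and leaving out single libraries moved it between -2.08 and -0.85. *Egln1* was above the floor in all 6 libraries.

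*Egln2*, which encodes PHD1 (ENSMUSG00000058709, chromosome 7, 27158658 to 27166802, minus strand), lay close together across the *Trf1*+/+ libraries, at 103, 75.4 and 112 normalized counts. The *Trf1*flox/flox libraries spread to both sides of these values, at 198.5, 6.56 and 14.5. The standard deviation was 19.3 in *Trf1*+/+ and 109 in *Trf1*flox/flox libraries (n = 3 each). Its log2 difference was -1.76 (standard error 1.37, unadjusted p = 0.245 from limma), although the library with the highest value was *Trf1*flox/flox replicate 1. It was -3.16 without that library (unadjusted p = 0.0220, adjusted p = 0.999 from limma), -0.80 without *Trf1*flox/flox replicate 2, and -0.39 with edgeR. An overlap of 11 bases with *Cyp2t4*, which is not listed, is the only exon overlap of this gene in the annotation.

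*Egln3*, which encodes PHD3 and is itself a known HIF target (ENSMUSG00000035105, chromosome 12, 54178981 to 54203860, minus strand), was at 0 in 3 libraries. Controls had 0, 0 and 70.0 normalized counts, and *Trf1*flox/flox libraries 45.5, 0 and 132. The libraries at 0 were *Trf1*+/+ replicates 1 and 2 and *Trf1*flox/flox replicate 2, the same 3 in which *Arnt* was at the floor. A log2 difference of 2.15 resulted (standard error 2.50, unadjusted p = 0.422 from limma), with a range of 0.72 to 4.25 when each library was left out.

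*Hif1an*, the gene of the asparaginyl hydroxylase FIH (ENSMUSG00000036450, chromosome 19, 44562850 to 44576274, plus strand), reached 0, 4.97 and 39.4 normalized counts in controls but 91.1, 41.5 and 65.5 in *Trf1*flox/flox. These groups did not overlap in normalized counts, but *Trf1*+/+ replicate 3 at 39.4 lay just below *Trf1*flox/flox replicate 2 at 41.5. In reads the order of these libraries was the reverse, 40 against 38. The separation thus rests on the scaling, by which 1 read was worth 0.985 normalized counts in the former and 1.09 in the latter. Controls averaged 14.8 ± 21.5 (SD, n = 3) and *Trf1*flox/flox libraries 66.0 ± 24.8 (SD, n = 3). The log2 difference was 3.36 (standard error 1.46, unadjusted p = 0.0599 from limma), or 3.16 after subtraction of the median over all tested genes. Its exact permutation p, two-sided, was 0.1. Leaving out the library labelled *Trf1*+/+ replicate 1, where *Hif1an* had 0 reads and *Terf1* had 1, gave 2.04. Without *Trf1*+/+ replicate 3 it was 4.71, with an unadjusted p of 0.00965 and an adjusted p of 0.248 in limma, the smallest adjusted p of any of the 9 genes over the alternatives run, which reached 1.

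*Vhl*, which encodes the subunit that recognises hydroxylated HIF-α (ENSMUSG00000033933, chromosome 6, 113623959 to 113631633, plus strand), was above the floor in all 6 libraries. Controls had 666, 136 and 69.0 normalized counts, against 162, 303 and 51.0 for *Trf1*flox/flox. The highest and the second lowest value both belonged to *Trf1*+/+ mice, and the groups overlapped throughout. The log2 difference was -0.44 (standard error 1.22, unadjusted p = 0.732 from limma). The value was 0.49 when the library labelled *Trf1*+/+ replicate 1 was left out and 0.26 when *Trf1*flox/flox replicate 3 was, so no direction can be given.

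*Vegfa*, the angiogenic growth factor and a standard HIF target (ENSMUSG00000023951, chromosome 17, 46016993 to 46032369, minus strand), showed 27.6, 111 and 0.985 normalized counts in controls. In *Trf1*flox/flox libraries the values were 174, 61.2 and 68.9. *Trf1*+/+ replicate 2 lay above 2 of the 3 *Trf1*flox/flox libraries, and *Trf1*+/+ replicate 3 held 1 read. The log2 difference was 2.30 (standard error 1.60, unadjusted p = 0.199 from limma, exact two-sided permutation p = 0.3), or 2.11 after the same subtraction. It was 0.69 without *Trf1*+/+ replicate 3, the library with 1 read.

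**Figure D3:**
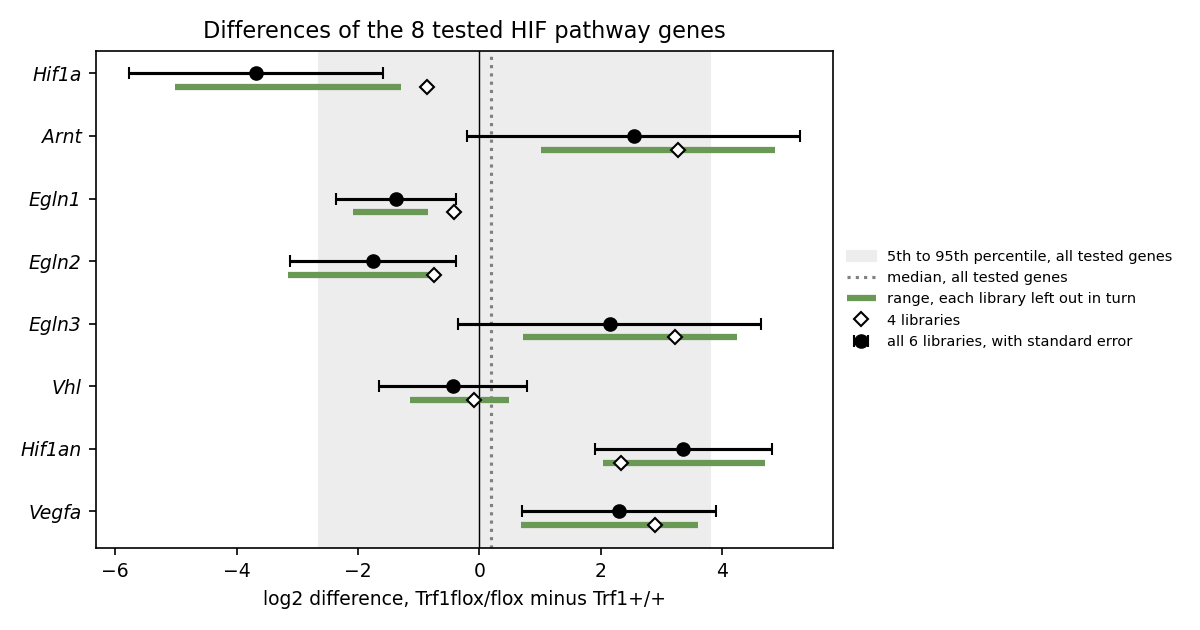
Log2 difference (*Trf1*flox/flox minus *Trf1*+/+) of the 8 tested genes, with black points and bars for the estimate and its standard error, green bars for the range with single libraries left out, and diamonds for 4 libraries (without the library labelled *Trf1*+/+ replicate 1 and *Trf1*flox/flox replicate 2). *Hif1a* at -3.67 lies outside the grey band of the 5th to 95th percentile of all tested genes, -2.64 to 3.80, but its value with 4 libraries is -0.85, and the range of *Vhl* crosses 0.

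The number of genes at the floor differed between libraries. Of the 9 genes, 3, 2 and 1 were at the floor in *Trf1*+/+ replicates 1, 2 and 3, and 1, 4 and 0 in *Trf1*flox/flox replicates 1, 2 and 3. *Trf1*flox/flox replicate 3 was the library in which all 9 genes exceeded 10 normalized counts. *Trf1*flox/flox replicate 2, with *Hif1a*, *Epas1*, *Arnt* and *Egln3* at the floor, had the lowest sum of the 9 genes, 465.5 normalized counts, against 986 to 2631 in the other 5 libraries.

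Levels were compared between genes per kilobase of annotated exons. By the median of the 6 libraries the order was *Hif1a* (69.2 normalized counts per kb, range 0.185 to 225), *Egln1* (57.6, range 14.3 to 139), *Vhl* (49.8, range 17.0 to 222) and *Egln2* (31.9, range 2.34 to 70.9). *Vegfa* followed at 15.2 (range 0.23 to 40.7), then *Arnt* at 12.5 (range 0 to 32.7), *Egln3* at 8.55 (range 0 to 49.7), *Hif1an* at 6.13 (range 0 to 13.8) and *Epas1* at 1.08 (range 0 to 11.1) normalized counts per kb. None of the 8 pairs of neighbours in this order had ranges that stood apart. Of all 36 pairs 4 did, namely *Egln1* and *Vhl*, each above *Hif1an* and *Epas1*. Per kb, *Hif1a* was the highest of the 9 genes in all 3 *Trf1*+/+ libraries, whereas *Egln2*, *Vhl* and *Egln1* were highest in *Trf1*flox/flox replicates 1, 2 and 3. Since the libraries were primed with oligo(dT), exon length is only an approximate scale for these levels.

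**Figure D4:**
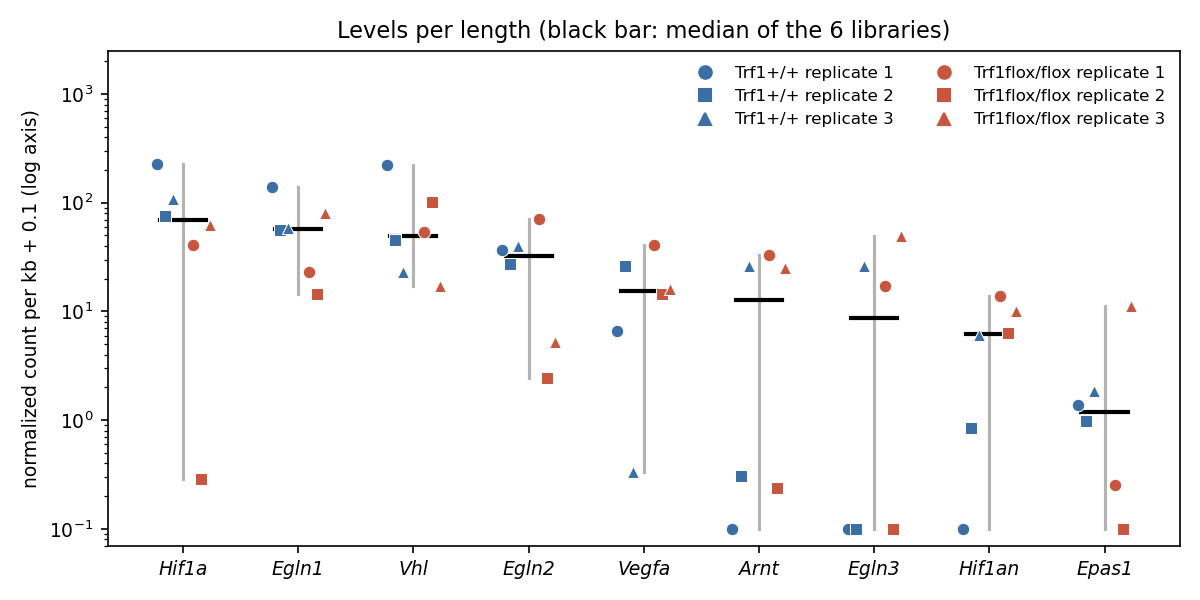
Normalized counts per kb of exon, plus 0.1, on a log axis for the 9 genes in order of their median (black bar), with a grey line over the range of the 6 libraries. *Hif1a* has the highest median, 69.2, and *Epas1* the lowest, 1.08, and the ranges of all neighbouring genes overlap.

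Several genes of this pathway are known HIF targets themselves, so their start regions were searched for the core that HIF binds. Promoter windows of 250 bases before to 50 bases after the start were taken from RefSeq on GRCm38.p6 for 8 of the 9 genes, with 10 windows in all; *Epas1* was not matched. The word ACGTG, on either strand and with overlaps counted, was found in 5 of the 10 windows, those of *Hif1a*, *Egln1*, *Egln2*, *Egln3* and a second start of *Vegfa*. Among all RefSeq windows of this kind, 19.6% of 32851 windows held it, and 25.6% of the 11689 windows of listed genes. The word GCGTG, which can share its end bases with ACGTG and was counted on its own, was held by 32.4% and 50.0% of these windows. It was found in as many of the 10 windows as ACGTG, those of *Arnt*, *Egln1*, both starts of *Egln2* and the second start of *Vegfa*. *Vhl*, *Hif1an* and the window at the other start of *Vegfa* had neither word. The second start of *Vegfa* lies within the gene, and all 35 bases of the stretch around its ACGTG word are in exons. The stretches before the start of *Hif1a* and the 3 prolyl hydroxylase genes are shown 5′ to 3′ on the strand of the gene, since these are the enzymes and the substrate at the centre of the pathway, with ACGTG on either strand in capitals.
Hif1a (chr12:73907717-73907816, plus strand): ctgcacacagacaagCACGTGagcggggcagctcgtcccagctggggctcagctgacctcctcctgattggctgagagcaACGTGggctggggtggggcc
Egln1 (chr8:124949303-124949337, minus strand): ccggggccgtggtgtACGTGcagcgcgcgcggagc
Egln2 (chr7:27166831-27166865, minus strand): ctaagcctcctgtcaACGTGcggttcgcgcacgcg
Egln3 (chr12:54204084-54204118, minus strand): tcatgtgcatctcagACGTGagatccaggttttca
The words begin 135 and 70 bases before the RefSeq start of *Hif1a*, where the first reads as ACGTG on both strands, and 68, 48 and 229 bases before those of *Egln1*, *Egln2* and *Egln3*. The *Egln2* window holds 3 words, of which the others do not lie wholly before the start and are not shown. The *Egln1* stretch reaches 22 bases into an exon of a longer transcript. The *Hif1a* start used, 73907867, lies inside the gene positions given above. The last bases of its window occurred in none of its GENCODE vM21 transcripts. Binding was not measured here. A match is a description of the letters, and of the 4 genes with a stretch shown, *Hif1a*, *Egln1* and *Egln2* had negative log2 differences and *Egln3* a positive log2 difference (-3.67, -1.37, -1.76 and 2.15).

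The genes whose profiles over the 6 libraries were most like that of *Hif1a*, by the root mean square distance of log2 values centred on their means, were *Bcl7b* (0.24), *Gm8128* (0.25) and *Arl2bp* (0.29). *Bcl7b* stood at 639, 192 and 272 normalized counts in controls and at 111, 0 and 254 in *Trf1*flox/flox libraries, and all 3 genes were at 0 in *Trf1*flox/flox replicate 2. In all, 18 tested genes lay within a distance of 0.5 of *Hif1a*. For *Vegfa* the nearest genes were *Snapc2* (0.56), *Arhgap35* (0.63) and *Lpin2* (0.65), with none within 0.5. Normalized counts of *Snapc2* were 49.0, 87.0 and 1.97 for controls, against 209.6, 129 and 50.3 for *Trf1*flox/flox.

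The other components of the HIF machinery were mostly listed and had differences of both signs. Of 21 genes, 20 were listed and 18 tested, of which 11 had a positive and 7 a negative log2 difference, with a median log2 difference of 0.14 against 0.20 over all tested genes. The groups did not overlap for 1 of the 18, against 8.68% of all tested genes. That gene was *Senp1*, which encodes a SUMO protease that acts on HIF-1α, with 11.6, 17.4 and 21.7 normalized counts in controls and 189, 38.3 and 131 in *Trf1*flox/flox libraries. Its log2 difference was 2.52 (standard error 0.93, unadjusted p = 0.0340, adjusted p = 0.996 from limma). The chaperone gene *Hsp90ab1*, with the highest mean of the list, had normalized counts of 7851, 3888 and 4800 in controls against 4425, 6612 and 6028, with a log2 difference of 0.089 (0.38 without the library labelled *Trf1*+/+ replicate 1). The subunits that join VHL in its ligase complex, chosen for mention after their values were seen, were *Elob* (log2 difference -0.0031), *Eloc* (-0.35), *Rbx1* (-0.036) and *Cul2* (1.68), with standard errors of 0.79, 0.76, 0.77 and 2.11. *Cul2* had 1 read in the library labelled *Trf1*+/+ replicate 1 and at least 96 in the other libraries. Without that library the log2 differences were 0.32, -0.38, 0.26 and -0.71, so that *Elob*, *Rbx1* and *Cul2* changed sign. *Hif3a* was not listed.

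Among the target genes of HIF that act in metabolism, more were lower than higher. This count changed when the library labelled *Trf1*+/+ replicate 1, which held 1 *Terf1* read, was left out. Of 32 such genes, 26 were listed and 25 tested, with 6 higher and 19 lower and a median log2 difference of -0.22. Over all tested genes 55.9% were higher. Without the library labelled *Trf1*+/+ replicate 1, 14 of the 25 were higher and the median was 0.011. The groups did not overlap for 1 of the 25, against 8.68% of all tested genes. That gene was *Bnip3l*, which encodes a receptor for the removal of mitochondria. Its normalized counts were 2094, 952 and 1042 for controls, against 859, 767 and 612 for *Trf1*flox/flox, a log2 difference of -0.79 with a standard error of 0.78 (-0.43 without the library labelled *Trf1*+/+ replicate 1). *Aldoa*, the glycolytic enzyme aldolase A and the gene of the list with the highest mean normalized count, had normalized counts of 20100, 9961 and 11100 in controls against 12490, 10610 and 6681. The groups of *Aldoa* overlapped, and its log2 difference was -0.44 (standard error 0.79), or -0.13 without the same library. *Slc2a1*, the glucose transporter GLUT1, was chosen after its values were seen and had normalized counts of 0.891, 787 and 536 in controls against 1623, 637 and 369. Its log2 difference was 2.97 (standard error 2.44), or 0.16 when leaving out the library labelled *Trf1*+/+ replicate 1, where *Slc2a1* had 1 read. *Car9*, a classical target of HIF-1, was not listed.

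Targets with other roles went in both directions. Of 32 genes, 24 were listed and 19 tested, of which 9 were higher and 10 lower, with a median log2 difference of -0.19. Without the library labelled *Trf1*+/+ replicate 1, 6 of the 19 were higher and the median was -0.77, and with upper quartile scaling, edgeR or DESeq2 the median was above 0. The groups did not overlap for 2 genes, with *Trf1*flox/flox below in both. *Wsb1*, a substrate receptor of a ubiquitin ligase, measured 1597, 1365 and 1673 normalized counts in controls and 1114, 67.8 and 459 in *Trf1*flox/flox libraries (log2 difference -2.23, standard error 1.20). *Bhlhe41*, a transcriptional repressor, measured 31.2, 57.2 and 47.3 in controls, against 28.4, 29.5 and 21.4 (log2 difference -0.72, standard error 0.75). *Ndrg1*, the gene of the list with the highest mean normalized count, had normalized counts of 8769, 3716 and 5608 in controls against 5155, 9254 and 6604, with a log2 difference of 0.26 (0.58 without that library). *Epo*, the gene of erythropoietin, was not listed. In both target lists together, 15 of 44 tested genes were higher and 29 lower, and 3 or 6.82% did not overlap between the groups, against 8.68% of all tested genes. None of the genes of the lists had an adjusted p under 0.05 in limma.

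Of the 9 VEGF ligands and receptors beside *Vegfa*, 3 were listed, and all 3 were tested. The receptors *Kdr*, *Flt1* and *Flt4* and the ligands *Vegfc* and *Pgf* were not listed. The co-receptor *Nrp1*, with the highest mean normalized count of the 3, measured 2.67, 558 and 188 normalized counts in controls and 779, 215 and 145 in *Trf1*flox/flox. Its groups overlapped, and its positive log2 difference (standard error 2.01) turned to -0.16 without the library labelled *Trf1*+/+ replicate 1, where it had 3 reads. The ligand *Vegfb* had a log2 difference of 1.19 (standard error 1.43), which was -0.30 without the library labelled *Trf1*+/+ replicate 1, and overlapped between the groups. *Vegfd* measured 465.8, 135 and 235.5 in controls, against 0, 251 and 115, and overlapped as well. These 2 ligands were chosen for mention after their values were seen. With 3 genes the median of this list is the value of *Vegfb*.

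**Figure D5:**
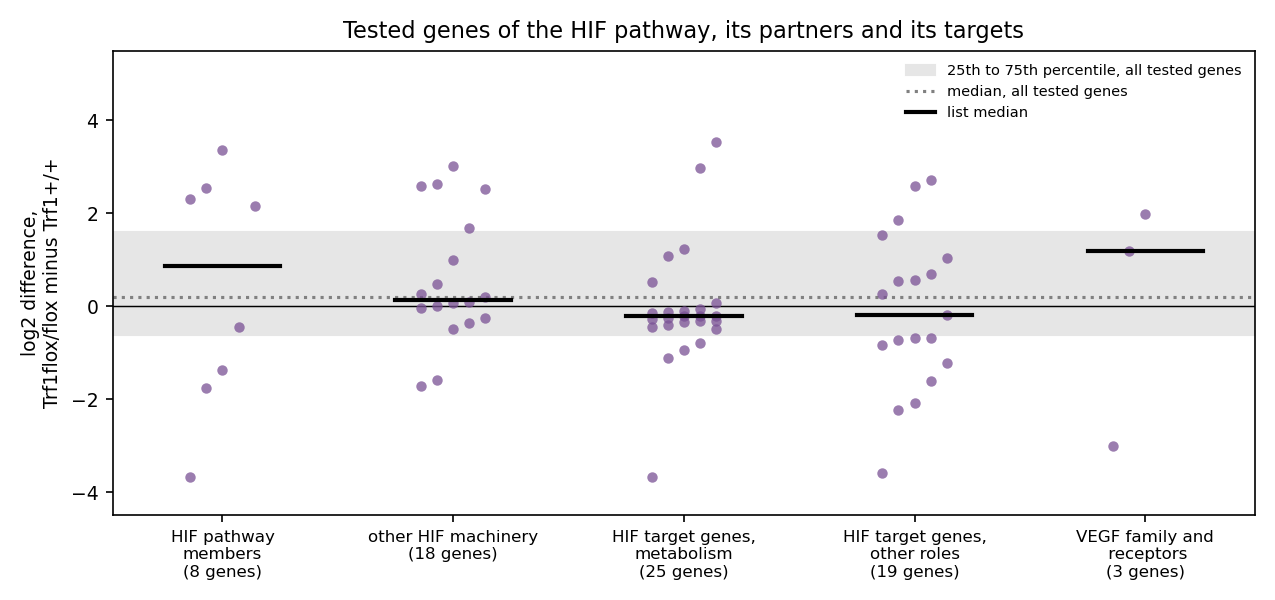
Log2 difference (*Trf1*flox/flox minus *Trf1*+/+) of each tested gene of the pathway and of the 4 other lists, with a black bar at each list's median and a grey band from the 25th to the 75th percentile of all tested genes (-0.62 to 1.60). The metabolic targets cluster just below 0, with a median of -0.22, while the 8 pathway genes spread from -3.67 to 3.36.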

How the data were processed

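From each mouse 500 sorted cells were lysed, and their RNA was reverse transcribed from oligo(dT), amplified and sequenced with a kit that does not mark strand. The authors aligned the reads with TopHat 2.0.10 (Bowtie 1.0.0, SAMtools 0.1.19) and counted them per gene with HTSeq 0.6.1; their methods name GRCm38 and the labels GRCm39. They deposited a signal per gene, the read count divided by a size factor of each library (normalized counts). All values (100%) were whole multiples of 1 read within 0.001 reads, so reads were recovered by division. The libraries held 10263382 to 12248797 reads.

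Genes with 10 or more normalized counts in 3 or more libraries (9966 of 12125) were tested on log2(normalized count + 1) with limma 3.58.1 in R 4.3.3, without a mean-variance trend and with Benjamini-Hochberg adjustment (threshold 0.05). The steps were tested on simulated data. Single genes were also tested with an exact two-sided permutation test. All p-values measure the spread between the 3 libraries of each genotype. Alternatives were edgeR 4.0.16 (quasi-likelihood, TMM) and DESeq2 1.42.0 on the recovered reads, other scalings, pseudocounts, filters and variance priors, and leaving out libraries. The members and lists were chosen with earlier results of these data known. Besides the 9 members, the text names from each list the genes whose groups do not overlap (at most 4) and the tested gene with the highest mean; other names are said to be chosen afterwards or are given as not listed. Profile likeness was computed for *Hif1a* and *Vegfa* and not for *Epas1*, which is at 0 in a library. Positions and exon lengths came from GENCODE vM21 on GRCm38.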

Additional observations from a re-analysis of the deposited data

How the results depend on the processing

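Under 14 alternative settings, 159 of 169 differences of the pathway genes and medians of the lists kept their direction, and 10 reversed. Fitting a mean-variance trend or dropping the filter on low values leaves each of these values as it was, so they could not reverse there. For *Epas1* dropping the filter was the only alternative. Among the 8 tested pathway genes, 7 kept their direction under every alternative run, but sizes changed. With edgeR and DESeq2 the log2 difference was -1.84 and -1.96 for *Hif1a*, 1.15 and 1.13 for *Arnt*, -0.39 and -0.40 for *Egln2*, 1.41 and 1.35 for *Egln3*, -0.69 and -0.73 for *Vhl*, 2.13 and 2.16 for *Hif1an*, and 1.09 and 1.13 for *Vegfa*. *Vhl* reversed to 0.49 without the library labelled *Trf1*+/+ replicate 1 and to 0.26 without *Trf1*flox/flox replicate 3, and ranged from -1.14 to 0.49 with single libraries left out. The same range of the median log2 difference was -0.040 to 0.58 for the other HIF machinery, -0.47 to 0.011 for metabolic targets, -0.77 to 0.0072 for targets with other roles and -0.30 to 2.11 for the VEGF family. The targets with other roles had a median of 0.024 with upper quartile scaling, 0.049 with edgeR and 0.067 with DESeq2, and the VEGF family one of -0.50 with 4 libraries. The cause of these reversals was not tested. The number of genes called over the whole table was 0 under 13 of the settings and 58 with DESeq2, none of them a pathway gene. *Egln2* had no p-value with DESeq2. The median of all tested genes itself moved from 0.20 to 0.37 with upper quartile scaling and to -0.045 with edgeR and -0.052 with DESeq2.

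No paired analysis was possible because the labels give no replicate numbers and tie no mouse of one genotype to a mouse of the other. *Hif1a*, *Epas1*, *Arnt*, *Egln3*, *Hif1an* and *Vegfa* were at the floor of 3 reads in 1 to 3 libraries each. The library with the most reads (12248797) had 3 of the 9 genes at the floor and the one with the fewest (10263382) had 0. Those with 11733746, 11285532, 10514052 and 10272323 reads had 2, 4, 1 and 1. More genes were thus at the floor in the deeper libraries, and why was not tested. With 3 libraries against 3, the exact permutation test could not go below 0.1.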
